A study of Xenopus laevis with 6 samples.

Results

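A small set of probe sets gave far lower signals in Xenopus laevis animal caps cultured with activin and retinoic acid (activin/RA) than in caps cultured without them. The members are 32 probe sets of 29 gene symbols, out of 32539 probe sets on the array. Each was at least 4-fold lower in activin/RA caps, a difference of -2 or less on the log2 scale, in each of 3 pairs of arrays that shared a morpholino. For 3 genes 2 probe sets were members. Where the member genes had further probe sets outside the members, most of those did not share the difference. Only probe sets with 1 gene symbol were kept, and symbols of 9 large families (slc, wnt, fgf, hox, rab, krt, cldn, col and itg) were dropped, which left 14912 probe sets to choose from. The members were thus chosen by the activin/RA differences themselves, and those differences are given as a description and without a test.

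The animal cap is the ectodermal roof of the blastula. Cut out and cultured alone it forms epidermis. Activin, a TGF-beta ligand, turns it towards mesoderm and endoderm, and with retinoic acid it can form pronephric tissue. Cells that take up such a fate are known to switch off parts of the ectodermal program. The members do not form one known pathway. They include enzymes that build or trim glycans, enzymes of lipid and sugar metabolism, receptors and channels, membrane and cytoskeletal proteins and a few nuclear factors. Their roles are known mainly from mammals.

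The labels give no strain. Embryos came from in vitro fertilization and received a morpholino, an antisense oligonucleotide that blocks its target transcript, in the animal region of every blastomere at the 4-cell stage. The 6 groups were activin/RA caps with ERK3 MO1/2 (40 ng of MO1 plus 40 ng of MO2), with ERK3 MO3 (80 ng) and with control MO (80 ng), and untreated caps with the same 3 injections. ERK3 is an atypical MAP kinase. Caps were cut at stage 9 and collected at stage 15. Every group, controls included, therefore carried an injected morpholino, and each was 1 RNA sample on 1 array, all from 1 experiment. The labels do not say whether the caps of the 2 cultures came from the same females, so a difference between clutches and a difference between cultures cannot be told apart.

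The arrays had closely matched scales, with median log2 signals between 5.08 and 5.14. Arrays of the same culture correlated at r = 0.970 or higher across probe sets and arrays of different cultures at r = 0.943 to 0.975, which is a description over probe sets that are not independent. Ectoderm markers were present in both cultures. Of 18 animal cap ectoderm markers, 16 to 18 lay above the median of all values on the activin/RA arrays, against 10 to 17 on the untreated arrays. Their median difference, activin/RA minus untreated, was 0.95, against -0.05 over all genes. In each pair 3 were 2-fold higher and 0 were 2-fold lower, against 215 and 147 of all 11303 genes. These means include the ERK3 arrays. In untreated caps 12 of the 18 fell with the ERK3 morpholinos, against 430 of all 11303 genes. All 17 mesendoderm markers were at least 2-fold higher in activin/RA caps in each pair. Their summed signal was 3047 to 4477 in activin/RA caps, against 179 to 250 in untreated caps. The mesendoderm markers moved with every culture difference below, and their part in it was not tested. In pooled caps, fewer cells of a type and less RNA per cell cannot be told apart.

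The member with the largest difference was man1c1.S, a Golgi mannosidase that trims N-linked glycans. With 16 added to the linear signals, gpx4.L had the largest (-3.16) and man1c1.S came next (-2.81). The log2 signal of man1c1.S was 2.90 (MO1/2), 2.29 (MO3) and 2.86 (control MO) in activin/RA caps, against 7.21, 7.14 and 7.1 in the matching untreated caps. The mean difference over the 3 pairs was -4.47 ± 0.34 (SD, n = 3 pairs), a 22.1-fold lower signal. The activin/RA arrays were all low, the untreated arrays were all high and nearly equal, and the ranges did not overlap. Over all members the mean difference ran from -4.47 to -2.15, with a median of -2.78. The SD between pairs ran from 0.09 to 0.72. The pairs carried 3 different injections and were not replicates, so this SD also includes any morpholino effect. The median over all probe sets was -0.01.

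The members' median difference was -3.04 in the MO1/2 pair, -2.91 in that of MO3 and -2.69 in that of control MO. The MO1/2 pair gave the smallest of the 3 differences for 6 members, the MO3 pair for 8 and the control pair for 18. Over all 32539 probe sets the smallest in size came from the MO1/2 pair for 8881, MO3 for 10116 and control for 13542. The control pair was thus the most frequent there too. Every activin/RA array was below every untreated array for all 32 members, which the rule favours. The same held for 16% of all probe sets, and the groups did not overlap in either direction for 31.1%.

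**Figure D1:**
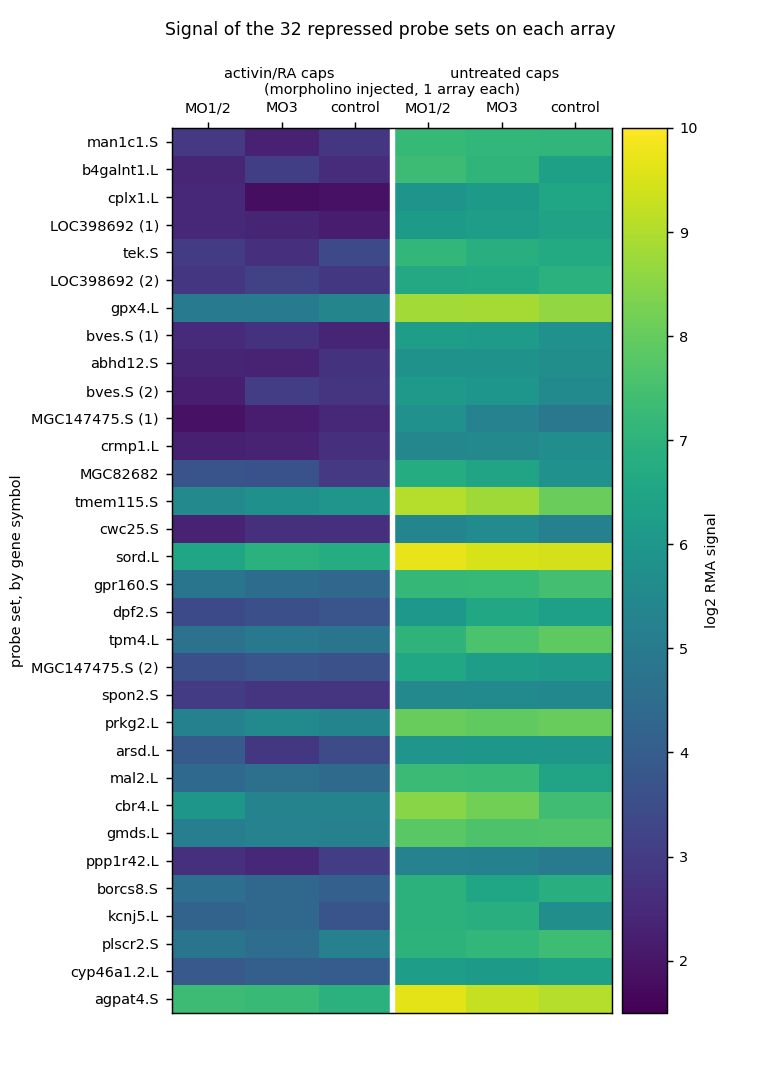
Log2 RMA signal (colour) of the 32 probe sets (rows, sorted by mean difference, with a number where a gene has more than 1 member) on the 6 arrays (columns, 1 array each), activin/RA caps left and untreated caps right. The left columns span 1.82 to 7.34 and the right columns 4.90 to 9.71, and within each row the left columns are the darker ones.

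The glycan group held man1c1.S and 3 further members. b4galnt1.L, which adds a sugar to gangliosides of the cell surface, had log2 signals of 2.42 (MO1/2), 3.06 (MO3) and 2.59 (control MO) in activin/RA caps, against 7.33, 7.06 and 6.32 in the matching untreated caps. Its mean difference was -4.21 ± 0.62. The untreated control array was the lowest of the untreated arrays, and still lay well above the activin/RA arrays. gmds.L, which starts the conversion of GDP-mannose into the fucose donor GDP-fucose, had signals of 5.14 to 5.28 in activin/RA caps, against 7.63 to 7.82 in untreated caps. Its mean difference of -2.49 ± 0.17 was among the more even ones. tmem115.S, a Golgi membrane protein, had 5.50 (MO1/2), 5.75 (MO3) and 5.92 (control MO) in activin/RA caps, against 9.07, 8.79 and 8.06 in the matching untreated caps. Its pairs differed more than those of any other member (mean -2.91 ± 0.72), with a difference of -3.57 for MO1/2 and of -2.14 for control MO.

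The other Golgi glycosylation enzymes did not share this difference. On a list of such enzymes 34 genes were measured, with each gene read from its brightest probe set. Of these, 2 were at least 2-fold lower in activin/RA caps in each pair, man1c1.S and b4galnt1.L themselves, and 0 were 2-fold higher. The list median was -0.23, against -0.05 over all genes, of which 1.3% were 2-fold lower in each pair. With ERK3 morpholinos, averaged over both cultures, 2 genes of the list rose and 4 fell (limma, adjusted p under 0.05), where 9.04% of all genes passed.

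Lipid and redox enzymes made up the next group. gpx4.L, the selenoenzyme that reduces lipid peroxides in membranes, had 5.01 (MO1/2), 4.99 (MO3) and 5.36 (control MO) in activin/RA caps, against 8.84, 8.85 and 8.63 in the matching untreated caps. The mean difference was -3.65 ± 0.33, a 12.6-fold lower signal. The 3 arrays of each culture lay close together. abhd12.S, a lipase for lysophosphatidylserine, had signals of 2.33 to 2.75 in activin/RA caps, against 5.7 to 5.87 in untreated caps (mean difference -3.33 ± 0.33). agpat4.S, an acyltransferase that makes phosphatidic acid, had 6.93 to 7.34 in activin/RA caps, against 9.07 to 9.64 in untreated caps. At -2.15 ± 0.14 it had the smallest mean difference of the members. cyp46a1.2.L, of the cholesterol 24-hydroxylase family, had 3.88 to 4.08 in activin/RA caps, against 6.12 to 6.35 in untreated caps (-2.26 ± 0.20). cbr4.L, a mitochondrial carbonyl reductase, had 5.29 to 5.99 in activin/RA caps, against 7.39 to 8.50 in untreated caps (-2.5 ± 0.42).

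The remaining metabolic members were also separated between cultures. sord.L, the sorbitol dehydrogenase of the polyol pathway, had signals of 6.50 to 6.93 in activin/RA caps, against 9.47 to 9.71 in untreated caps (-2.82 ± 0.34). arsd.L, an arylsulfatase, had 3.90 (MO1/2), 2.86 (MO3) and 3.47 (control MO) in activin/RA caps, against 5.92, 6.01 and 5.99 in the matching untreated caps. Its untreated arrays were almost equal, and its pair differences ran from -3.15 (MO3) to -2.02 (MO1/2) with the activin/RA arrays. plscr2.S, of the phospholipid scramblase family, had 4.54 to 5.21 in activin/RA caps, against 7 to 7.37 in untreated caps (-2.31 ± 0.23).

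Of 55 lipid metabolism genes, 4 were at least 2-fold lower in each pair and 2 were 2-fold higher, with a list median of -0.08. Besides abhd12.S and agpat4.S, the lower genes were dgat2.L, which makes triglycerides, at -2.25 ± 0.78, and the fatty acid desaturase scd.L at -1.32 ± 0.08. dgat2.L was no member because it gave -1.97 with MO1/2 and -1.66 with MO3. Averaged over cultures, 2 genes of this list rose with the ERK3 morpholinos and 6 fell, against 513 and 509 of all 11303 genes. Of 46 glutathione, thioredoxin and antioxidant genes, gpx4.L was the 1 gene 2-fold lower in each pair, 1 was 2-fold higher, and the list median was 0.02. There 1 gene rose and 1 fell with the ERK3 morpholinos.

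Receptors and signalling proteins formed a group of 4. tek.S encodes the endothelial receptor for angiopoietins. It had 3.02 (MO1/2), 2.68 (MO3) and 3.36 (control MO) in activin/RA caps, against 7.12, 6.83 and 6.70 in the matching untreated caps, a mean difference of -3.87 ± 0.45. On a short list of endothelium and blood markers, the other genes were near the bottom of the scale in both cultures. Of 7 such markers with tek.S included, 0 lay above the median of all values on any activin/RA array, against 1 on each untreated array, which was tek.S. Without tek.S the summed signal of the other 6 was 35.8 to 39.6 in activin/RA caps, against 35.8 to 39.5 in untreated caps. On the longer blood and endothelial list tek.S was again the 1 gene of 34 that was 2-fold lower in each pair, with a list median of 0.04. Not all genes of that list were near the bottom. Above the median of all values lay 9 on each activin/RA array and 8 to 10 on the untreated arrays.

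The orphan receptor gene gpr160.S had signals of 4.30 to 4.81 in activin/RA caps, against 7.17 to 7.47 in untreated caps (-2.74 ± 0.41). prkg2.L, a cGMP-dependent protein kinase, had 5.22 to 5.54 in activin/RA caps, against 7.94 to 8.03 in untreated caps (-2.63 ± 0.21). kcnj5.L, a subunit of G-protein-gated inward rectifier potassium channels, had 4.2 (MO1/2), 4.38 (MO3) and 3.70 (control MO) in activin/RA caps, against 6.95, 6.84 and 5.71 in the matching untreated caps. For kcnj5.L the control array was the lowest in either culture, and the difference was -2.75 with MO1/2 and -2.46 with MO3, against -2.01 with control MO.

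Membrane, vesicle and cytoskeletal proteins accounted for 8 genes. cplx1.L, which binds the SNARE complex at synaptic vesicles, had 2.5 (MO1/2), 1.82 (MO3) and 1.91 (control MO) in activin/RA caps, against 5.91, 6.12 and 6.52 in the matching untreated caps (-4.11 ± 0.62). Here the control pair gave the largest difference, -4.61. crmp1.L, a collapsin response mediator of axon guidance, had 2.23 to 2.65 in activin/RA caps, against 5.44 to 5.68 in untreated caps. With -3.13 ± 0.09 it was the member with the most even pairs. Of 50 neuronal and synaptic genes on a list, these 2 were the ones at least 2-fold lower in each pair, 0 were 2-fold higher, and the list median was 0.00. With ERK3 morpholinos, averaged over both cultures, 2 genes of that list rose and 4 fell, against 513 and 509 of all 11303 genes.

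bves.S, a cAMP-binding Popeye domain protein of epithelial and muscle membranes, was a member through 2 probe sets. One had signals of 2.37 to 2.74 in activin/RA caps, against 5.80 to 6.26 in untreated caps (-3.54 ± 0.17). The second had 2.2 to 3.05 in activin/RA caps, against 5.53 to 6.08 in untreated caps (-3.17 ± 0.62). Both probe sets showed the separation, which the rule required of each member. They read the same RNA and are not replicates. On a list of 44 muscle genes bves.S was the 1 gene 2-fold lower in each pair.

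mal2.L, a membrane protein of transcytosis to the apical surface, had 4.40 to 4.64 in activin/RA caps, against 6.46 to 7.29 in untreated caps (-2.51 ± 0.44). borcs8.S, of the complex that positions lysosomes, had 4.09 to 4.61 in activin/RA caps, against 6.54 to 6.95 in untreated caps (-2.42 ± 0.32). The tropomyosin gene tpm4.L had 4.68 to 4.95 in activin/RA caps, against 7.04 to 7.89 in untreated caps (-2.71 ± 0.38). In each of these genes the activin/RA arrays lay close together, well below the untreated ones. The secreted matrix protein gene spon2.S had 2.78 to 3 in activin/RA caps, against 5.46 to 5.57 in untreated caps (-2.64 ± 0.15). ppp1r42.L, a leucine-rich repeat subunit of protein phosphatase 1, had 2.48 to 3.04 in activin/RA caps, against 5.05 to 5.26 in untreated caps (-2.45 ± 0.39).

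The nuclear members were dpf2.S, a subunit of the BAF chromatin remodelling complex, and the splicing factor gene cwc25.S. dpf2.S had 3.41 to 3.75 in activin/RA caps, against 6.02 to 6.59 in untreated caps (-2.73 ± 0.26). cwc25.S had 2.33 to 2.66 in activin/RA caps, against 5.24 to 5.61 in untreated caps (-2.87 ± 0.25). The last 3 symbols carry no gene name in the annotation used. LOC398692 was a member through 2 probe sets (-3.91 ± 0.30 and -3.77 ± 0.26), and so was MGC147475.S (-3.15 ± 0.70 and -2.67 ± 0.30). MGC82682 had 3.71 (MO1/2), 3.65 (MO3) and 2.91 (control MO) in activin/RA caps, against 6.78, 6.48 and 5.81 in the matching untreated caps (-2.93 ± 0.12). As for kcnj5.L, the control array was the lowest of its culture on both sides.

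**Figure D2:**
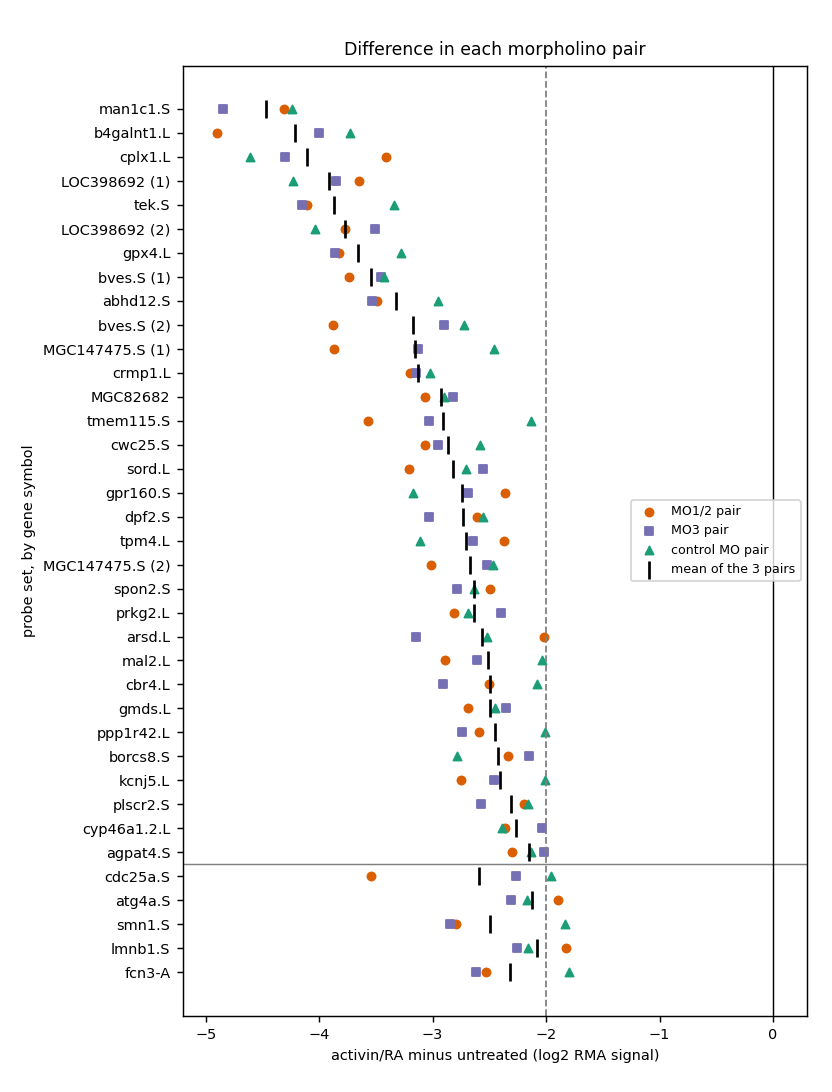
Difference between activin/RA and untreated caps (x axis, log2 RMA signal) for the 32 members and, under the solid line, the 5 probe sets just outside the rule. Symbols mark the MO1/2, MO3 and control MO pairs, short bars their mean and the dashed line the threshold of -2. Members lie left of the dashed line in all 3 pairs, and each of the 5 below the solid line has at least 1 pair right of it.

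The threshold cut through a continuous range. The members just inside it, by their weakest pair, were ppp1r42.L (-2.01), kcnj5.L (-2.01), agpat4.S (-2.02), arsd.L (-2.02) and mal2.L (-2.03). Just outside it were the cell cycle phosphatase gene cdc25a.S (-1.96), the autophagy protease gene atg4a.S (-1.89), smn1.S (-1.83), the nuclear lamin gene lmnb1.S (-1.82) and fcn3-A (-1.80). The gene cdc25a.S had a larger mean difference, -2.59, than all 5 members just inside. In all, 79 probe sets or 0.243% met the 3 differences. Of these, 44 had no symbol, 1 had several and 2 belonged to families that the rule drops. Those 47 had a median mean difference of -3.08. Among the same 14912 probe sets, 32 (0.215%) met the rule and 104 (0.697%) were at least 4-fold higher in activin/RA caps in each pair.

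Most members were below the median of all values in activin/RA caps. As the rule favours, all 3 activin/RA arrays lay below it for 24 of 32 members, against 15389 of all 32539 probe sets. They lay below the lower quartile, 2.84, for 7 of 32, a share near that over all probe sets (7305 of 32539). For 6 members all 3 stayed above the median, against 15317 of all probe sets. In untreated caps 30 of 32 lay above the median on all 3 arrays, which the rule favours. The same held for 14995 of all probe sets and for 8839 of the 14912 to choose from. RMA compresses differences at the lower end, so a value there gives little information on how low a transcript was. With a constant of 16 added to the linear signal, which shrinks differences between weak signals, the members' median difference was -1.93 (range -3.16 to -1.20), and 7 of the 32 still met the rule.

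Some members had other probe sets of their gene on the array that were not members, and most of these did not show the difference. Xenopus laevis is an allotetraploid frog, and most of its genes have a copy on the long (.L) and the short (.S) subgenome. Among probe sets with 1 symbol, 20 of the 29 genes had a single probe set, 9 had several and 3 of those 9 had 2 member probe sets. The other 6 had 15 further probe sets, which by definition missed the rule, since any that met it would be members. Of these, 2 were at least 2-fold lower in activin/RA caps in each pair, where 1.21% of all probe sets with 1 symbol were. They belong to agpat4.S (-1.48 ± 0.28) and plscr2.S (-1.39 ± 0.19). The remaining plscr2.S probe sets did not follow, with mean differences of -0.11, 0.16 and 0.27. Another agpat4.S probe set, near the bottom of the scale on every array, had -0.04. The 15 mean differences ran from -1.48 to 4.83 with a median of -0.03. On 1 or more arrays 12 of the 15 exceeded the overall median signal.

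The clearest disagreement was in cwc25.S. Beside its member at -2.87, another probe set had log2 signals of 8.53 (MO1/2), 8.41 (MO3) and 8.28 (control MO) in activin/RA caps, against 3.51, 3.43 and 3.78 in the matching untreated caps. That is a mean difference of 4.83 ± 0.29 in the opposite direction, with no overlap between cultures. Of the remaining probe sets, one stood at 0.86 ± 0.06 and one, near the bottom of the scale on every array, at 0.02. For dpf2.S the other 3 probe sets had mean differences of -0.20, -0.01 and 0.02. For tmem115.S the other probe set had -0.40 ± 0.26. For tpm4.L they had -1.01 ± 0.42 and -0.03, the second from a probe set near the bottom of the scale on every array. For cwc25.S the direction of the transcript cannot be read from 1 probe set.

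No other subgenome copy that could be read shared the difference. For 9 genes the other copy was found among probe sets with 1 symbol. These copies had 12 probe sets, each of which exceeded the overall median signal on 1 or more arrays. Of these 12, 0 were 2-fold lower in each pair, and their mean differences ran from -0.64 to 0.37. gpx4.L stood at -3.65 and gpx4.S at 0.37 ± 0.17, and bves.S stood at -3.54 and -3.17 and bves.L at -0.48 ± 0.11. gmds.S had -0.54 ± 0.13, mal2.S -0.41 ± 0.07, dpf2.L -0.33 ± 0.31 and cwc25.L -0.13 ± 0.10. The pair of gpr160.L probe sets had -0.64 and -0.20, that of tmem115.L -0.24 and -0.23, and that of tpm4.S -0.32 and -0.27. Copies can share probe sequence, so a probe set may read part of the other copy.

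Genes at least 4-fold higher in activin/RA caps, which were chosen in the same way, can be set beside this. Of the further probe sets on the same gene, 2 of 15 (13.3%) followed the members at 2-fold in each pair, against 17 of 53 (32.1%) for the genes that were higher. Both counts leave out probe sets that were 4-fold changed in each pair, since those belong to the sets themselves. Of the probe sets on the other subgenome copy, 0 of 12 followed the members, against 8 of 22 (36.4%) for the genes that were higher. Among probe sets with 1 symbol 1.87% were 2-fold higher in each pair. The difference between the lower and the higher set was not tested. cwc25.S has a probe set in either set, and each counts as one that did not follow the other. At 16 of the 29 member genes neither a further probe set nor another copy was found among the probe sets with 1 symbol. These genes, read here from 1 probe set each, include man1c1.S, b4galnt1.L, cplx1.L and tek.S. Probe sets with no symbol (16765) or several (279) were not searched for them.

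**Figure D3:**
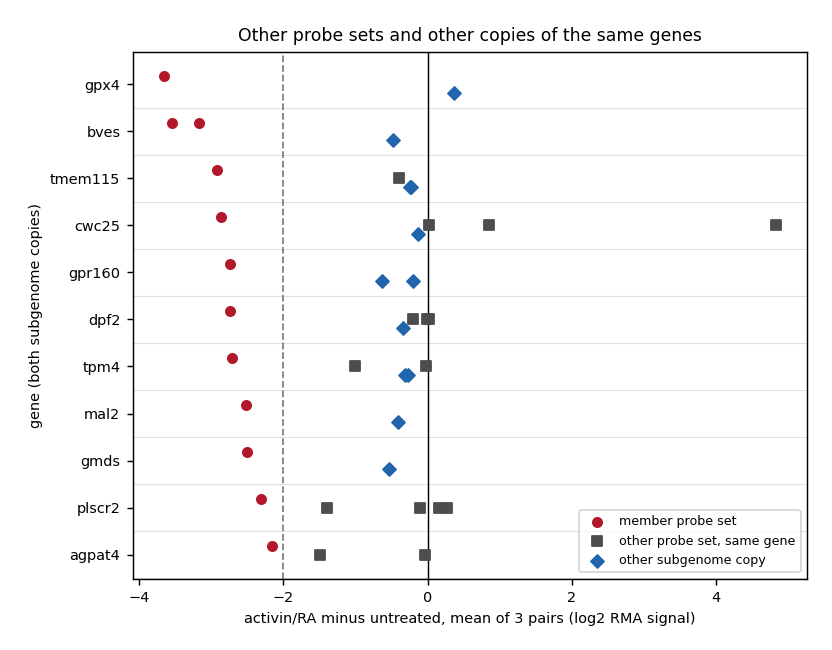
Mean difference between activin/RA and untreated caps (x axis, log2 RMA signal, 3 pairs) for the 11 genes with a further probe set or another copy. Circles are members, squares other probe sets of the same gene and diamonds the other subgenome copy, and the dashed line marks -2. Squares and diamonds cluster near 0, apart from squares of agpat4, plscr2 and tpm4 between -1.48 and -1.01 and of cwc25 at 0.86 and 4.83.

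The members were spread over both subgenomes. Of the 29 genes 14 (48.3%) were .L and 13 (44.8%) were .S, against 57.4% and 38.8% of the 10854 genes that could have been chosen. All 29 were found in the RefSeq gene table of assembly Xenopus_laevis_v10.1. They lay on 12 chromosomes and no 2 were adjacent genes. The closest pair, MGC147475.S and LOC398692, had 21 genes between them.

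The lists of cell types and processes were read against all 11303 genes. Of these, 147 (1.3%) were 2-fold lower in each pair and 215 were 2-fold higher. Among epidermal transcription factors 1 of 36 genes was 2-fold lower in each pair (dlx2.L, -1.53 ± 0.58) and 2 were 2-fold higher, with a list median of 0.50. The mucus and secretory list of 15 and the multiciliated list of 29 held 0 lower and 0 higher genes. Of 20 ionocyte genes 0 were lower and 1 was higher, and of 29 neural crest genes 0 were lower and 3 higher. Of 35 BMP targets 0 were lower and 3 higher, with a list median of 0.56. In untreated caps 21 of the 36 epidermal factors and 19 of the 35 BMP targets fell with the ERK3 morpholinos (limma, adjusted p under 0.05). Over all 11303 genes 430 did so. Of 48 maternal transcripts 1 was lower in each pair, btg4.L (-1.63 ± 0.27), and 4 were higher. The median of that list was -0.31, against -0.05 over all genes. The 10 maternal and germ line markers had a median of -0.76, with 1 lower and 0 higher. Of 72 proliferation genes 2 were lower, cdc25a.S and mad2l1.L (-1.92 ± 0.33), a gene of the spindle checkpoint, and 0 were higher. The proliferation list had a median of -0.25. Of 49 neural plate genes 1 was lower, neurod1.S (-2.05 ± 0.87), and 5 were higher. Of 33 innate immunity genes 1 was lower, socs1.S, and 1 was higher, and of 28 p53 response genes 0 were lower and 2 higher. By comparison 42 of 69 early mesoderm and endoderm genes and 10 of 32 retinoic acid response genes were 2-fold higher in each pair, and 0 of either list were lower.

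Whether the ERK3 morpholinos changed the members was tested with contrasts other than the one that chose them. The estimate, the mean of the ERK3 reagents minus control averaged over both cultures, does not depend on the pair differences. Its p-value does in part. The spread it uses combines that between the 2 reagents with a trend fitted over all probe sets. The spread between the reagents includes how far the MO1/2 and MO3 pair differences disagree. In that test 2 of 32 members passed (6.25%), where 7.87% of all probe sets passed, so the share of the members is near the background. Both were higher with the ERK3 morpholinos, as were 3.47% of all probe sets, and 0 of 32 were lower, against 4.41% of all. The members' median was 0.04, against 0.01 over all probe sets. The 2 reagents stood in for replicates, so p-values measure only how far these arrays differ among themselves, and that may be technical.

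kcnj5.L was higher with either ERK3 reagent in both cultures. It differed from control by 0.50 with MO1/2 and 0.68 with MO3 in activin/RA caps, and by 1.24 and 1.13 in untreated caps. The mean effect was 0.89 ± 0.15 SE (limma adjusted p = 0.0220, higher on 4 of 4 ERK3 arrays). MGC82682 differed by 0.80 with MO1/2 and 0.75 with MO3 in activin/RA caps, and by 0.97 and 0.67 in untreated caps, a mean effect of 0.80 ± 0.16 SE (limma adjusted p = 0.0326, higher on 4 of 4 ERK3 arrays). Both calls were lost without certain arrays, while the effect itself stayed between 0.84 and 0.93 for kcnj5.L and between 0.72 and 0.87 for MGC82682 when 1 ERK3 array was left out. Without the untreated MO1/2 array the limma adjusted p was 0.0516 for kcnj5.L and 0.0718 for MGC82682, and without the activin/RA MO1/2 array it was 0.0522 and 0.0848. Without the activin/RA MO3 array it was 0.0469 for kcnj5.L and 0.0609 for MGC82682. Over all settings tried it lay between 0.0210 and 0.0555 for kcnj5.L, and between 0.0283 and 0.0848 for MGC82682.

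In untreated caps alone 1 of 32 members passed (3.12%, against 6.7% of all probe sets, 3.14% higher and 3.56% lower). It was kcnj5.L, at 1.18 ± 0.21 SE (limma adjusted p = 0.0274, range over the settings 0.0245 to 0.0969, the highest without the untreated MO1/2 array). This contrast uses arrays of the rule and is not wholly independent of it. With a filter on signal, and with 16 added before log2, 2 of 32 members passed in untreated caps. Others were above control with both reagents without passing when neither change was made. tmem115.S differed from control by 1.01 with MO1/2 and 0.74 with MO3 (limma adjusted p = 0.0546), mal2.L by 0.83 and 0.79 (adjusted p = 0.0669), and cbr4.L by 1.11 and 0.81 (adjusted p = 0.107). In untreated caps both reagents gave a value above control for 19 members (59.4%, against 41% of all probe sets) and below control for 8 (25%, against 37.8%). Both reagents were at least 2-fold above control for 1 member, kcnj5.L (3.12%, against 2.05% of all probe sets), and 2-fold below for 0 (against 2.54%). All of these share the 1 untreated control array. Of the 18 ectoderm markers 12 fell with the ERK3 morpholinos in untreated caps and 0 rose, and of 10 maternal and germ line markers 6 rose and 0 fell. Over all 11303 genes 430 fell and 461 rose. The part of these markers in the members' values was not tested.

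In activin/RA caps 0 of 32 members passed (limma, and 3 or 9.38% at an unadjusted p under 0.05, against 10.9% of all probe sets), where 0.138% of all probe sets passed, 0.0123% higher and 0.126% lower. Both reagents were above control for 7 members (21.9%, against 37.5% of all probe sets) and below it for 9 (28.1%, against 36.2%). For 0 members were both reagents 2-fold above control (against 0.157%) or 2-fold below it (against 0.904%). The members' effects there ran from -0.54 to 0.77 with a median of 0.02. As in untreated caps, this contrast uses arrays of the rule and is not wholly independent of it. MO3 did not differ from MO1/2 for any member (limma, 0 of 32 at an adjusted or an unadjusted p under 0.05). The p-values of that comparison use the disagreement between pair differences as part of their spread, so they are not independent of the rule. Over all probe sets 0 passed after adjustment and 6.06% were at an unadjusted p under 0.05. The members' MO3 minus MO1/2 values ran from -0.50 to 0.41. The largest in size was that of cbr4.L at -0.50 ± 0.22 SE (limma adjusted p = 0.833). Next came arsd.L at -0.47 ± 0.28 SE (limma adjusted p = 0.902) and tpm4.L at 0.41 ± 0.22 SE (adjusted p = 0.884).

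**Figure D4:**
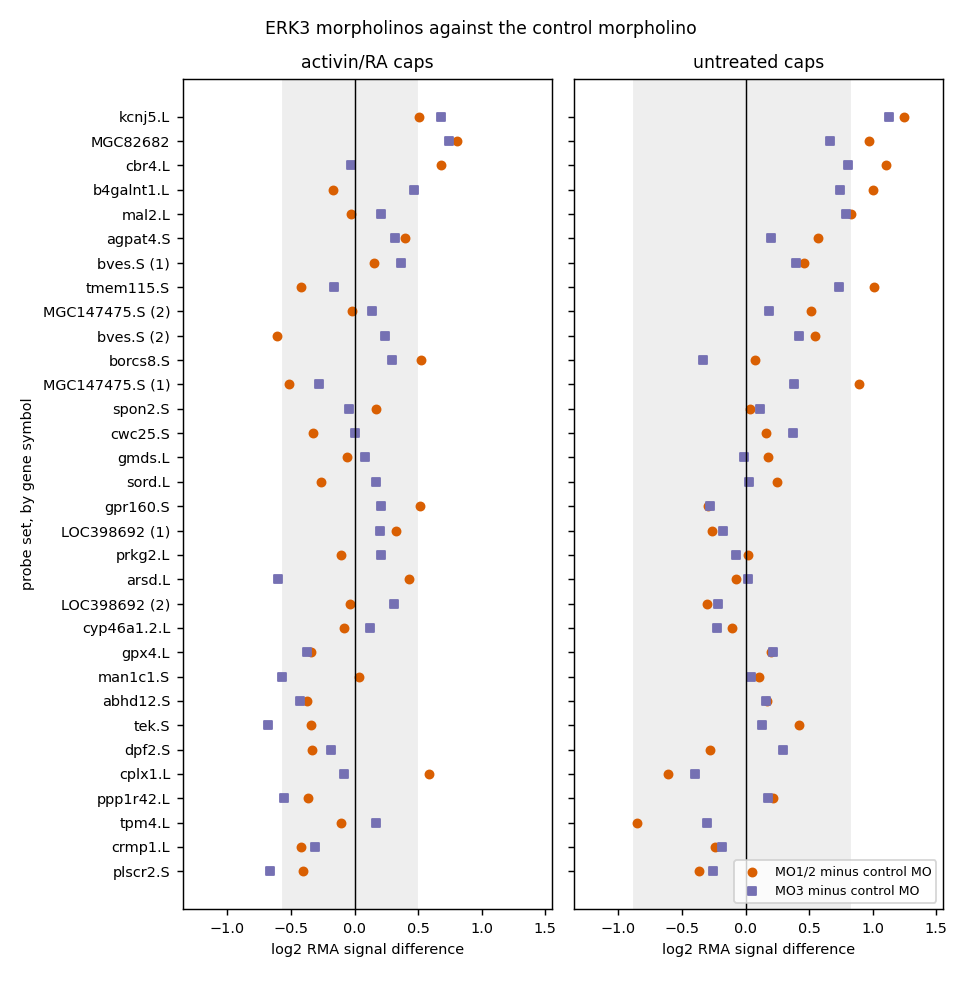
Log2 RMA signal of MO1/2 (circles) and MO3 (squares) minus control MO (x axis) for the 32 members in activin/RA caps (left) and untreated caps (right), sorted by the mean effect over both cultures. The grey band spans the 5th to 95th percentile of mean ERK3 effects over all probe sets in that culture, -0.56 to 0.49 on the left and -0.88 to 0.82 on the right. kcnj5.L and MGC82682, at the top, are above 0 with both reagents in both cultures.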

How the data were processed

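RNA from 6 samples of animal caps was read on Affymetrix GeneChip Xenopus laevis Genome 2.0 arrays, from 250 ng of total RNA each, per the labels' protocols. Per the labels, images were analysed with GeneChip Operating Software 1.4 and the authors normalized the arrays by robust multi-array average (RMA) in Expression Console. The deposited intensity values are on a linear scale, and log2 was taken of them with no constant. RMA files carry no detection call. Of 32635 rows 96 control rows were left out, and no filter on level was used. Symbols came from the platform annotation (15495 probe sets with 1 symbol, 279 with several, 16765 with none), of which 15384 matched RefSeq by identifier and 2 were updated.

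The ERK3 contrasts were tested with limma 3.58.1 in R 4.3.3 (eBayes with an intensity trend), in a fit of culture, knockdown and their interaction. MO3 was set against MO1/2 in an additive fit of culture and morpholino. Both left 2 residual degrees of freedom. A lone control array was assumed to vary like the other groups. The Benjamini-Hochberg adjustment ran over the 32539 probe sets, with a threshold of 0.05. The number of arrays limits the precision. The fits were tested on simulated data. All members are named. Members, role groups and 19 gene lists were chosen with earlier results of these data known. Alternatives were the trend, a signal filter, a constant of 16, re-scaling, thresholds of -1.5 and -2.5, an additive fit and leaving out each array or pair.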

Additional observations from a re-analysis of the deposited data

Results flagged for a closer look

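For 8 of the 32 members (25%, against 17.4% of all probe sets) both ERK3 reagents lay on one side of control in activin/RA caps and on the other side in untreated caps. The rule fixed part of these differences, so they were not tested. The ERK3 effect in activin/RA caps minus that in untreated caps was -1.16 for tmem115.S, -1.04 for a probe set of MGC147475.S, -0.79 for tek.S, -0.66 for ppp1r42.L, -0.57 for gpx4.L and -0.56 for abhd12.S. It was 0.65 for gpr160.S and 0.48 for a probe set of LOC398692. The groups of 1 array each do not allow a search for outlying samples.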

How the results depend on the processing

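The number of members was 60 at a threshold of -1.5, 15 at -2.5, 7 with 16 added before log2, and 32 to 49 when 1 pair was left out, with 49 without the control pair. It was 29 to 32 under re-scaling and the signal filter. Leaving out a pair removes a condition of the rule, so it can only keep or add members. With 16 added, the mean difference of 28 members moved by more than the SD of its pairs. That 0 members changed direction under any setting follows from the rule, which required -2 or lower in each pair. ERK3 calls over all probe sets, averaged over cultures, were 2562, or 672 in the additive fit, and 646 to 3048 when 1 array was left out. In untreated caps they were 2180 (322 to 2482 when 1 array was left out, the lowest without untreated MO1/2). In activin/RA caps they were 45, or 16 without the trend, 0 with the signal filter (limma, 3532 at an unadjusted p under 0.05 without the filter) and 203 with 16 added, and 0 to 45 when 1 array was left out. MO3 against MO1/2 gave 0 calls, and 0 to 778 when 1 array was left out. The causes were not tested. In the additive fit 0 members passed, and the adjusted p was 0.0555 for kcnj5.L and 0.0528 for MGC82682 (0.0554 for MGC82682 with 16 added). Leaving out a control array left no estimate averaged over cultures. The labels give no replicate numbers, so there were no replicate pairs to block on. The pairs of arrays in the report share only a morpholino. Signals near the bottom of the scale limit how large a difference can be measured.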
